A study of Homo sapiens with 48 samples.

Results

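The comparison described here is the addition of CKI at 1 mg/mL to gefitinib at 50 uM in cells labelled H1975, a human lung adenocarcinoma line known for a mutated EGFR. It rests on 6 of the 48 libraries of the series, chosen by their sample labels: 3 of cells given both agents (CKI 1 mg/mL with gefitinib 50 uM) and 3 of cells given gefitinib 50 uM without CKI. CKI is compound Kushen injection, a mixed plant extract used in Chinese medicine, and gefitinib is a small-molecule inhibitor of the EGFR kinase. For values side by side, the text also uses 3 libraries each of CKI 1 mg/mL alone, of untreated cells, of CKI 1 mg/mL with gefitinib 75 uM, of gefitinib 75 uM alone, and of CKI 2 mg/mL with gefitinib 50 uM. All of these cells were harvested at 24 h, and all are labelled H1975 and were grown in the same medium with fetal bovine serum. The study held 16 groups of 3 libraries, the design text calls the 3 of a group biological replicates, and the labels name no vehicle for the untreated cells. The labels name the line H1975 throughout but cite for it the supplier's code of a breast line, MCF-7; the identity used here rests on the name and on the marker levels given below. Every group comes from a single cell line, so no value speaks for other tumours, and nothing here measured cell number or survival.

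EGFR passes growth signals through RAS and ERK to the nucleus, where ERK switches on short-lived transcription factors and its own inhibitors, and blocking EGFR lowers both that output and the genes of the cell cycle. Cholesterol and fatty acid synthesis is set by SREBP transcription factors, which are released from the endoplasmic reticulum when sterols run low and raise almost every enzyme of the pathway together. Plant compounds often engage the aryl hydrocarbon receptor, which induces CYP1A1, and the KEAP1 sensor, which frees the antioxidant factor NRF2. NF-kappaB drives secreted chemokines and cytokines in epithelial cells.

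Total counts were 21296035, 21474235 and 23806186 in the libraries with both agents, against 16428398, 19219386 and 19953748 in those with gefitinib alone. Levels below are CPM, counts relative to the library total, scaled by TMM factors, and they compare 1 gene between libraries, not genes with each other, since transcripts differ in length. NKX2-1, the lung lineage factor, ran from 28.4 to 30.8 CPM with both agents and from 58.8 to 76.5 CPM with gefitinib alone. Only 13 of the 23 listed genes of lung lineage and keratins had enough counts to be tested. NAPSA, another gene of that list, ran from 1.82 to 2.20 CPM with both agents and from 2.57 to 3.3 CPM with gefitinib alone. SFTPB, also of that list, had at most 2 counts with both agents and at most 3 counts with gefitinib alone. ESR1, the estrogen receptor that marks luminal breast cells, was at most 0.129 CPM with both agents and at most 0.309 CPM with gefitinib alone, and PGR had no count in any of the 6 libraries. The list of 12 luminal breast markers summed to 253 to 289.5 CPM with both agents and to 183 to 211 CPM with gefitinib alone. These levels do not settle the identity of the line. ALB, the main secreted protein of liver, had 0 to 3 counts in the libraries with both agents and 1 to 4 counts in those with gefitinib alone. In bulk RNA, fewer cells of a kind and less RNA per cell cannot be told apart.

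Adding CKI to gefitinib changed 5015 of 15789 genes tested, 31.8%, by edgeR's quasi-likelihood test with Benjamini-Hochberg adjustment over all genes. Of the genes tested, 15.5% rose (2453 genes) and 16.2% fell (2562 genes), and 312 of the rises and 442 of the falls were past 2-fold. The median log2 change over all genes was 0.00, so the medians of gene groups given below can be read against 0. Counts of rises and falls in those groups can be read against the 15.5% and 16.2% of all genes. The 20% of genes with the lowest GC content in their transcripts had a median log2 change of 0.15, against -0.19 in the 20% with the highest, and the deviations of the 3 libraries of gefitinib alone from their mean correlated with GC content across genes at 0.188, 0.44 and -0.563. Genes are not independent replicates, and the part of GC content in single changes was not tested. A fit that corrected the counts for GC content called 5466 genes, 4235 of them among the 5015. Scaling by library totals in place of TMM factors moved the median of all genes to 0.13 and the calls to 4021 higher and 1641 lower, so changes are reported relative to the TMM scale, and leaving out library 2 of gefitinib alone left 3601 calls.

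**Figure D1:**
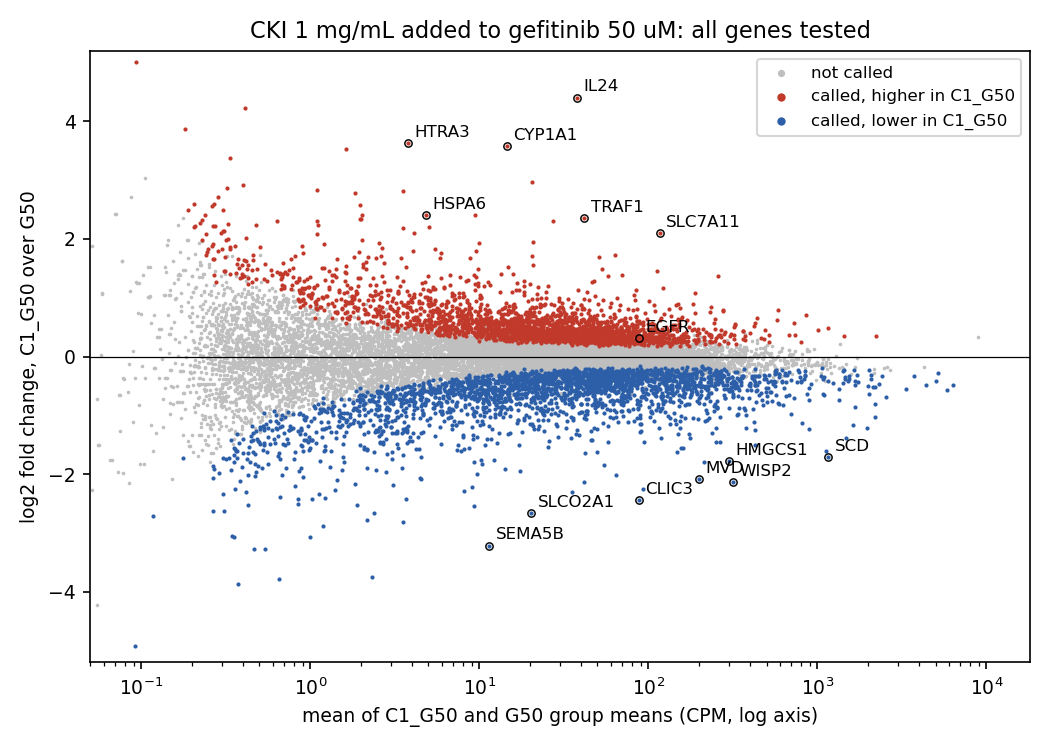
Each point is 1 of the 15789 genes tested, with the mean of both groups' levels (CPM, log axis) on the x axis and its log2 fold change, CKI 1 mg/mL with gefitinib 50 uM over gefitinib 50 uM alone, on the y axis; genes with adjusted p under 0.05 are red (higher) or blue (lower), and 91 genes lie outside the axes. The 2453 rises and 2562 falls lie on both sides of 0 across the range of levels, and IL24, at 4.40, stands highest among the named genes.

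Among the rises with the largest folds, IL24, a secreted cytokine, had 70.8, 70.2 and 76.5 CPM with both agents, against 3.15, 3.51 and 3.58 CPM with gefitinib alone. Its groups are far apart, and the log2 change was 4.40 ± 0.25 (SE, 3 libraries a group, edgeR adjusted p = 5.7e-16). HTRA3, a secreted serine protease, rose by 3.63 ± 0.29, and ANGPTL4, a secreted inhibitor of lipoprotein lipase, by 2.97 ± 0.28 on the log2 scale. TRAF1, an adaptor of tumour necrosis factor receptors, rose by 2.36 ± 0.13, the membrane protein SECTM1 by 2.31 ± 0.19 and the long noncoding RNA LUCAT1 by 2.20 ± 0.21. GCNT3, a glycosyltransferase of mucin chains, rose by 2.19 ± 0.23. PSG1, a pregnancy-specific glycoprotein with near-identical copies among which reads may be split, gave 2.81 ± 0.28 and is uncertain.

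Among the falls with the largest folds, SEMA5B, a guidance protein of the semaphorin family, had 1.64, 2.76 and 2.27 CPM with both agents, against 20.8, 24.2 and 17.2 CPM with gefitinib alone. The groups do not overlap, and its log2 change was -3.21 ± 0.34 (SE, 3 libraries a group, edgeR adjusted p = 3.5e-09). EFNA2, an ephrin ligand, fell by 2.81 ± 0.29, the prostaglandin transporter SLCO2A1 by 2.66 ± 0.18, and IGFBP5, a binding protein of insulin-like growth factors, by 2.43 ± 0.30. MGP, an inhibitor of matrix calcification, fell by 2.28 ± 0.21 and WISP2, a matrix-associated signalling protein, by 2.14 ± 0.22. CLIC3 fell by 2.44 ± 0.24, SAMD11 by 2.30 ± 0.28, RBBP8NL by 2.22 ± 0.23 and RASSF10 by 2.18 ± 0.26. ALPP, at -2.54 ± 0.19, and the hair keratin KRT81, at -2.25 ± 0.26, have near-identical relatives and are uncertain.

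Cholesterol and fatty acid synthesis fell almost as a whole. Of 33 genes measured, 31 fell and 0 rose with CKI added to gefitinib, with a median log2 change of -1.10; scaled by library totals, 30 fell and 1 rose. HMGCS1, which makes the substrate of HMG-CoA reductase, had 139.1, 135.3 and 132.8 CPM with both agents, against 440.1, 439.1 and 514.6 CPM with gefitinib alone. All 3 libraries with both agents lie below those of CKI alone, at 300.3, 265 and 319.3 CPM, and close to the untreated cells, at 128.7, 115.8 and 114.8 CPM. Its log2 change was -1.78 ± 0.11 (SE, edgeR adjusted p = 1.1e-16), and against untreated cells the difference of the combination was 0.18 ± 0.11 (edgeR adjusted p = 0.15).

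The fall with CKI added to gefitinib was seen along the pathway, while the level against untreated cells varied between genes. FDFT1, the squalene synthase, had 145, 136 and 123 CPM with both agents, against 384, 354 and 369 CPM with gefitinib alone, a log2 change of -1.45 ± 0.10. SCD, the desaturase of saturated fatty acids, had 552, 542 and 536 CPM with both agents, against 1718, 1742 and 1882 CPM with gefitinib alone, a log2 change of -1.71 ± 0.13. In both genes the groups are separated by more than the whole range within a group. MVD, of the mevalonate arm, fell by 2.09 ± 0.18, SQLE, the squalene epoxidase, by 1.05 ± 0.08, DHCR7, which makes cholesterol in a final step, by 1.45 ± 0.12, and TM7SF2, a sterol reductase, by 0.89 ± 0.16 on the log2 scale. Against untreated cells, the combination stood at a log2 difference of -0.06 ± 0.10 for FDFT1, 0.06 ± 0.17 for MVD, 0.42 ± 0.13 for SCD and 2.34 ± 0.19 for TM7SF2. Over the 33 genes, gefitinib alone had 30 higher and 1 lower than untreated cells, with a median of 1.32, where 54.4% of all genes tested were called, 27.6% higher and 26.8% lower. The combination had 12 higher and 6 lower than untreated cells, with a median of 0.10, where 54.9% of all genes were called, 27.1% higher and 27.8% lower. Both comparisons share the untreated libraries.

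CKI alone moved the same genes the other way. Against untreated cells, 29 of the 33 rose and 2 fell, with a median of 0.89, where 27.9% of all genes were called, 13.2% higher and 14.7% lower, and HMGCS1 rose by 1.30 ± 0.11 on the log2 scale. The difference between the addition to gefitinib and CKI alone was called lower for 29 of 33 genes and higher for 0, with a median of -2.08, where 17.7% of all genes were called, 8.66% higher and 9.06% lower. For HMGCS1 the difference was -3.08 ± 0.15 (edgeR adjusted p = 1e-19), for TM7SF2 -3.24 ± 0.25, for MVD -3.13 ± 0.25 and for DHCR7 -3.04 ± 0.17.

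The start-site region of HMGCS1 is shown because it stands for a pathway whose members moved together. It is taken from the RefSeq promoter table (GRCh38.p14, chr5:43313363-43313662, minus strand, 250 bases before to 50 after the annotated start), and capitals mark the CCAAT box, found here as ATTGG on the opposite strand. The counts were made on hg19, so these coordinates belong to the sequence only.
HMGCS1: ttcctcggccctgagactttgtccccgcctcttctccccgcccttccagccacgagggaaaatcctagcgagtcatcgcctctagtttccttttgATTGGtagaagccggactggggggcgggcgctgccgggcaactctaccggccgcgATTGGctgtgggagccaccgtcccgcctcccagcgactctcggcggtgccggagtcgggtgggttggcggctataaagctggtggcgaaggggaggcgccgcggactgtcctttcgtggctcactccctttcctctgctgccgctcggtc
Of the 33 genes, 25 matched the table by symbol. CCAAT, searched on both strands, lay in 17 of the 25 windows (68%), against 35.7% of all 27305 windows. The sterol regulatory element, searched as TCACNCCAC, lay in 1 of the 25 (4%), against 1.15% of all windows. These matches describe the letters of the windows only.

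**Figure D2:**
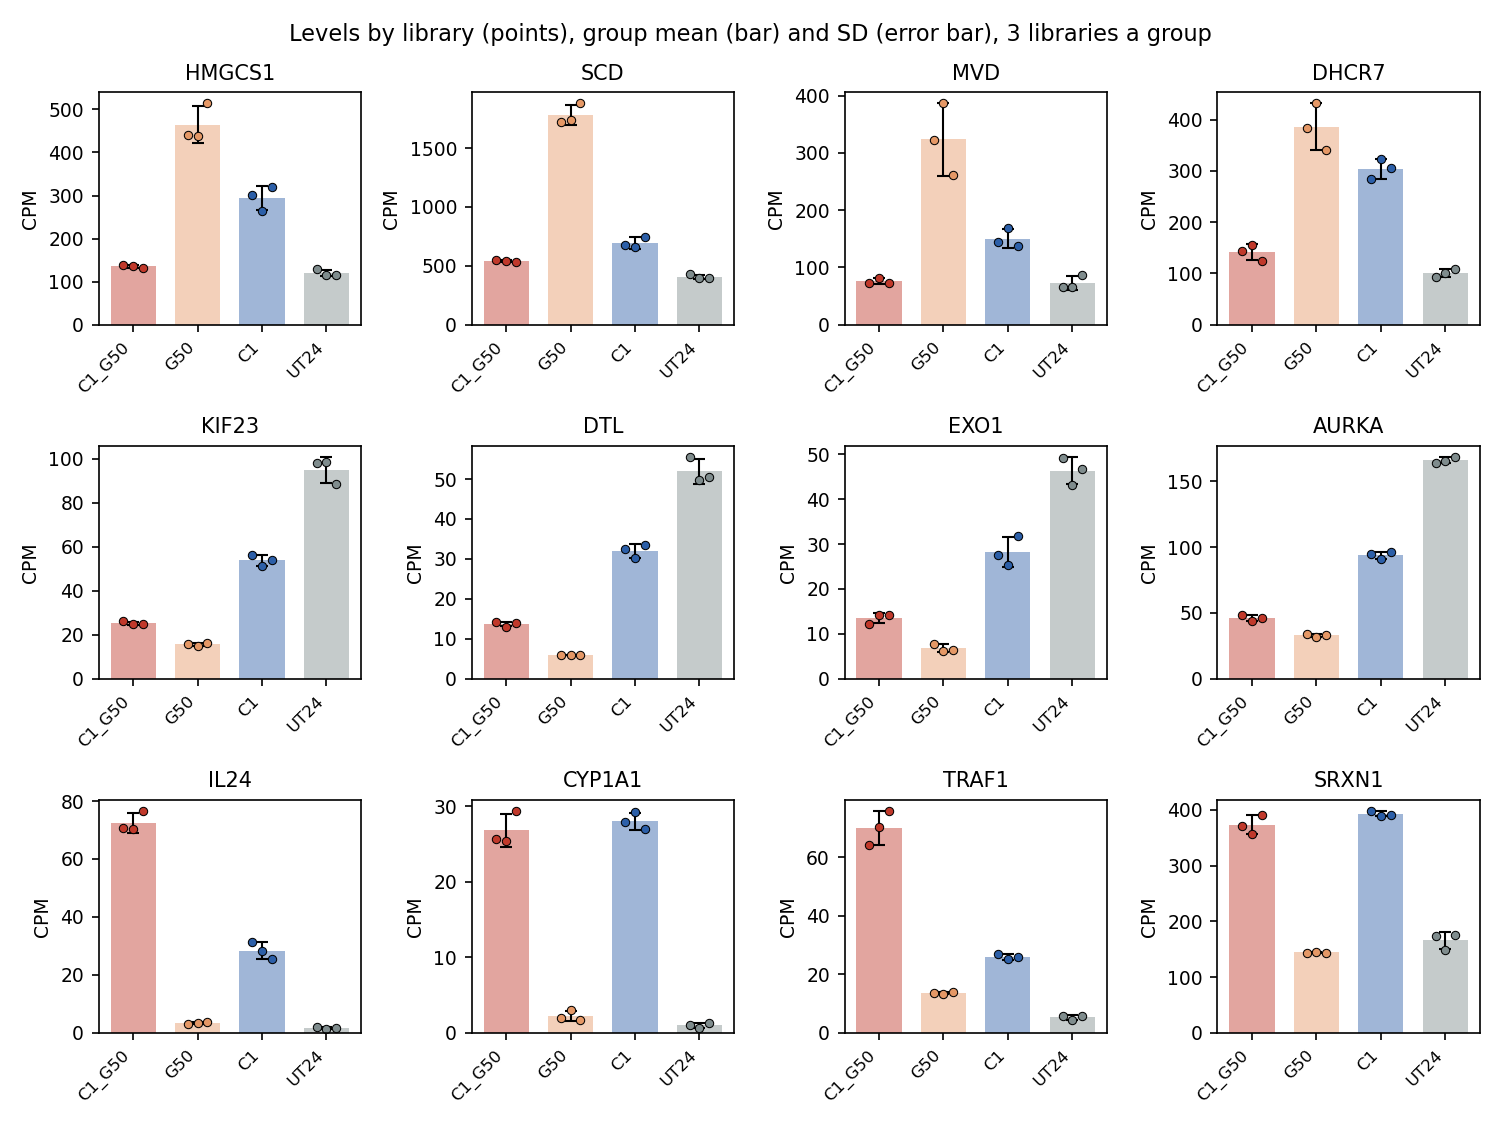
Level (CPM, y axis) of 12 genes in CKI 1 mg/mL with gefitinib 50 uM (C1_G50), gefitinib 50 uM alone (G50), CKI 1 mg/mL alone (C1) and untreated cells (UT24); points are the 3 libraries of a group, bars the mean and error bars the SD. HMGCS1 is at 132.8 to 139.1 CPM with both agents, below gefitinib alone and CKI alone, while IL24 is at 70.2 to 76.5 CPM with both agents, above every other group.

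Cell cycle genes rose when CKI was added to gefitinib. Among 32 genes of mitosis 22 rose and 0 fell, with a median log2 change of 0.44, and among 38 genes of DNA replication 21 rose and 1 fell (2 without library 3 of gefitinib alone), with a median of 0.36. Among 22 genes of homologous recombination and Fanconi repair 19 rose and 0 fell, with a median of 0.60. Without library 2 of gefitinib alone, the rises in the mitosis list numbered 14. With the GC correction they numbered 25 in mitosis, 23 in DNA replication and 16 in repair.

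KIF23, a motor protein of the dividing cell's midzone, had 26.1, 24.8 and 24.8 CPM with both agents, against 15.6, 15.1 and 16.3 CPM with gefitinib alone. CKI alone had 56.4, 51.3 and 53.9 CPM, and untreated cells 98.2, 98.5 and 88.3 CPM. The 4 groups do not overlap: the combination lay above gefitinib alone and far below untreated cells. The log2 change with CKI added to gefitinib was 0.69 ± 0.10 (SE, edgeR adjusted p = 9.8e-07), and that of the combination against untreated cells was -1.91 ± 0.10.

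The other named members moved alike. CENPA, the histone variant of centromeres, rose by 0.70 ± 0.11, the mitotic kinase AURKA by 0.49 ± 0.08 and the checkpoint kinase BUB1 by 0.63 ± 0.11. In replication, DTL, a substrate adaptor of a ubiquitin ligase, rose by 1.20 ± 0.15, the origin-licensing factor CDC6 by 0.91 ± 0.11, MCM10 by 1.01 ± 0.16, ORC6 of the origin recognition complex by 0.85 ± 0.13 and the primase subunit PRIM1 by 0.78 ± 0.10. In repair, the polymerase POLQ rose by 1.19 ± 0.17, RAD54L, a DNA translocase of recombination, by 1.03 ± 0.12, the nuclease EXO1 by 0.99 ± 0.12 and EME1, a partner of the MUS81 nuclease, by 0.97 ± 0.14. All of these values stayed below untreated cells: the combination was called lower than untreated in 32 of 32 mitosis genes, with a median of -1.92, in 38 of 38 replication genes, with a median of -1.66, and in 22 of 22 repair genes, with a median of -1.35. Gefitinib alone was called lower than the same untreated libraries in all members too, with medians of -2.36, -2.15 and -2.09 in that order.

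Again CKI alone went the other way. Against untreated cells 0 of 32 mitosis genes rose and 32 fell, with a median of -0.84; in replication 37 of 38 fell, with a median of -0.72, and in repair 19 of 22 fell, with a median of -0.62. The difference between the addition to gefitinib and CKI alone was called higher in 32 of 32 mitosis genes, with a median of 1.28, in 37 of 38 replication genes, with a median of 1.05, and in 21 of 22 repair genes, with a median of 1.27. For KIF23 it was 1.51 ± 0.14 (edgeR adjusted p = 1.9e-11), for MCM10 1.95 ± 0.20 and for E2F2, a transcription factor of S-phase genes, 2.66 ± 0.32.

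The start-site region of KIF23 is shown because its letters are those shared most widely by the mitosis list. It comes from the same RefSeq table (GRCh38.p14, chr15:69414099-69414398, plus strand), and capitals mark a CCAAT box, here as ATTGG, and TTTGAA, the core of the cell cycle genes homology region that DREAM and MuvB complexes read.
KIF23: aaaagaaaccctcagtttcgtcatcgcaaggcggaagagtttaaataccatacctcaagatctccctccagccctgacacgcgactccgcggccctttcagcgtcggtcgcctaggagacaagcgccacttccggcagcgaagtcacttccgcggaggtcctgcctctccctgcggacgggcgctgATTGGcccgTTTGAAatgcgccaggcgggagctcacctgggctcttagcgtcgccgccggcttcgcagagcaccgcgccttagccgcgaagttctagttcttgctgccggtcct
Of the 32 mitosis genes, 28 matched the table. TTTGAA, searched on both strands, lay in 19 of the 28 windows (67.9%), against 15.4% of all 27305, and CCAAT in 22 of the 28 (78.6%), against 35.7% of all. In the replication list TTTGAA lay in 1 of 33 windows (3.03%). CCAAT lay in 60.6% of the replication windows, 68% of sterol, 47.6% of NRF2, 42.1% of inflammatory and 33.3% of aryl hydrocarbon receptor target windows. The share of CCAAT is thus not particular to the mitosis list.

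Inflammatory and NF-kappaB genes rose, with gefitinib and without it. Of 25 measured, 17 rose and 3 fell with CKI added to gefitinib, with a median log2 change of 0.88, and 15 rose and 1 fell with CKI alone, with a median of 0.71. CXCL5, a neutrophil chemokine, had 7.09, 6.51 and 6.36 CPM with both agents, against 1.30, 1.22 and 2.08 CPM with gefitinib alone. The groups do not overlap, and the log2 change was 2.09 ± 0.23. CXCL8, another neutrophil chemokine, had 15.6 to 16.1 CPM in the 3 libraries with both agents, against 2.84, 2.61 and 3.49 CPM with gefitinib alone, a log2 change of 2.41 ± 0.39. IL11, a cytokine of the interleukin-6 family, rose by 1.46 ± 0.11, PTX3, a secreted pattern-recognition protein, by 1.5 ± 0.17, and the apoptosis inhibitor BIRC3, an NF-kappaB target, by 1.83 ± 0.20.

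For IL24 and TRAF1 the rise with CKI alone was of similar size. IL24 had 31.4, 28.3 and 25.3 CPM with CKI alone, against 2.01, 1.22 and 1.63 CPM in untreated cells, a log2 change of 4.10 ± 0.28, and the difference between them was 0.30 ± 0.41 (edgeR adjusted p = 0.66). For TRAF1 the change alone was 2.29 ± 0.15 and the difference 0.07 ± 0.20 (edgeR adjusted p = 0.87). Those SEs leave room for differences of either sign. CXCL8 differed: with CKI alone its change was 0.67 ± 0.39 (adjusted p = 0.21), and the difference was 1.73 ± 0.56 (edgeR adjusted p = 0.026), a call that was lost without library 1 of untreated cells (adjusted p = 0.066), library 1 or 2 of gefitinib alone (0.054 and 0.070) or library 2 of CKI alone (0.067).

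The start-site region of CXCL5 is shown for the NF-kappaB site among these genes (GRCh38.p14, chr4:73998628-73998927, minus strand, RefSeq table), with the site in capitals.
CXCL5: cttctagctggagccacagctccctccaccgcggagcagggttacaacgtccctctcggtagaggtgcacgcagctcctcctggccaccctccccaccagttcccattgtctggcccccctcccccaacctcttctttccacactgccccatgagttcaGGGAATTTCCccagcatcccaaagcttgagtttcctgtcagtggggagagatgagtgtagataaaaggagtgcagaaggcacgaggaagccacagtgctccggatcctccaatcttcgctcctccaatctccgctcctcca
The NF-kappaB motif, searched on both strands as GGG, any 2 letters and TTTCC, lay in 8 of 19 inflammatory windows (42.1%), against 1.92% of all windows.

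Antioxidant genes of NRF2 rose as well. Of 30 measured, 19 rose and 2 fell with CKI added to gefitinib, with a median of 0.42, and 23 rose and 0 fell with CKI alone, with a median of 0.86. SRXN1, which repairs oxidised peroxiredoxins, had 372, 357 and 391 CPM with both agents, against 144, 145 and 144 CPM with gefitinib alone. Its groups are far apart, the log2 change was 1.37 ± 0.10 (edgeR adjusted p = 7.4e-15), with CKI alone it was 1.24 ± 0.09, and the difference was 0.13 ± 0.13 (adjusted p = 0.55). GCLM, the regulatory subunit of the glutathione-making ligase, rose by 1.37 ± 0.12 and TRIM16L by 1.16 ± 0.08. SLC7A11, the cystine importer and a target of both NRF2 and ATF4, had 188, 179 and 199 CPM with both agents, against 45.1, 38.3 and 48.7 CPM with gefitinib alone, a log2 change of 2.10 ± 0.14. With CKI alone it had 137, 113 and 137 CPM, against 13.1, 11.7 and 10.6 CPM in untreated cells, a change of 3.45 ± 0.16, and the difference was -1.35 ± 0.21 (edgeR adjusted p = 3.2e-06). The fold was thus smaller with gefitinib while the level reached was higher.

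Of 10 aryl hydrocarbon receptor targets 4 rose and 0 fell, with a median of 0.34. CYP1A1, the receptor's classical target enzyme, had 25.6, 25.5 and 29.4 CPM with both agents, against 1.92, 3.03 and 1.74 CPM with gefitinib alone, a log2 change of 3.58 ± 0.20 (edgeR adjusted p = 1.3e-17). With CKI alone it had 27.9, 29.2 and 27.0 CPM, against 1.08, 0.58 and 1.25 CPM in untreated cells, a change of 4.82 ± 0.23. The groups with CKI overlap in level and those without it do not reach them; the difference in fold, -1.23 ± 0.33 (edgeR adjusted p = 0.0068), was not called without library 2 of gefitinib alone (adjusted p = 0.077). TIPARP, which turns the receptor off, rose by 1.12 ± 0.13, NQO1, a quinone reductase, by 0.65 ± 0.09 and CYP1B1 by 0.45 ± 0.10.

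The start-site region of CYP1A1 is shown for the receptor's core letters, GCGTG, in capitals (GRCh38.p14, chr15:74725479-74725778, minus strand, RefSeq table).
CYP1A1: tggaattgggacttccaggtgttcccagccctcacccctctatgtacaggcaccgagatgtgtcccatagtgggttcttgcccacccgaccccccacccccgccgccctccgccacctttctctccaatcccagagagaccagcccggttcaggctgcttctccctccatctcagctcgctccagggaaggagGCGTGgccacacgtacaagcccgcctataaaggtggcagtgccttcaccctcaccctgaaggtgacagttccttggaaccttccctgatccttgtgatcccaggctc
GCGTG, searched on both strands, lay in 6 of 9 windows of the receptor's targets (66.7%), against 36.3% of all windows. It also lay in 76% of the matched sterol windows, 63.6% of those of DNA replication, 53.6% of mitosis, 52.4% of NRF2 and 26.3% of inflammatory genes, so its share is not particular to the receptor's targets.

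In the stress response of ATF4 and CHOP, 10 of 31 genes rose and 4 fell with CKI added to gefitinib, with a median of 0.17, or 15 rose and 1 fell when scaled by library totals, whereas 28 rose and 1 fell with CKI alone, with a median of 0.86; the difference was called lower in 19 and higher in 0. Without library 3 of the combination, the rises with gefitinib numbered 6, and the falls numbered 2 without library 1 or 2 of gefitinib alone or library 1 of the combination. ATF3, a stress-induced transcription factor, had 65.2, 63.6 and 68.7 CPM with both agents, against 26.8, 25.1 and 30.3 CPM with gefitinib alone, a log2 change of 1.26 ± 0.14, and VEGFA, the vascular growth factor, rose by 0.62 ± 0.12. GDF15, a secreted stress hormone, rose by 1.07 ± 0.20, against 3.18 ± 0.23 with CKI alone, with a difference of -2.11 ± 0.29. NUPR1, a stress-induced chromatin protein, fell by 1.06 ± 0.15 with gefitinib present and rose by 0.85 ± 0.16 with CKI alone, with a difference of -1.91 ± 0.22. Amino acid transporters fell in 0 of 14 and rose in 6, among them SLC3A2, the partner chain of SLC7A11, which rose by 0.37 ± 0.08. Of 19 cytosolic aminoacyl-tRNA synthetases 3 rose and 3 fell, shares near the 15.5% and 16.2% of all genes. Scaled by library totals, 8 rose and 1 fell. The falls numbered 1 without library 1 or 2 of gefitinib alone or library 1 or 3 of the combination. WARS fell by 0.43 ± 0.08 and FARSB rose by 0.43 ± 0.09.

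Chaperones of the endoplasmic reticulum rose in 17 of 24 and fell in 1, with a median of 0.44. DNAJB11, a cochaperone, rose by 0.55 ± 0.08, SELENOS, of the degradation machinery, by 0.64 ± 0.10, HYOU1 by 0.54 ± 0.09 and HSPA5, the main chaperone of that compartment, by 0.48 ± 0.09. With CKI alone 13 of the 24 rose and 1 fell, with a median of 0.31, and the difference was called in 2. Cytosolic heat shock chaperones rose in 9 of 23 and fell in 3, and the rises numbered 5 without library 1 of gefitinib alone, 4 without its library 2 and 4 without library 3 of the combination. HSPA6, the strictly inducible heat shock protein, had 7.31, 7.55 and 9.65 CPM with both agents, against 1.61, 1.60 and 1.45 CPM with gefitinib alone, a log2 change of 2.40 ± 0.20. With CKI alone its change was 0.22 ± 0.22 (adjusted p = 0.49), and the difference was 2.18 ± 0.30 (edgeR adjusted p = 4.2e-07). FKBP4, a cochaperone of steroid receptors, rose by 0.53 ± 0.10, while HSPB1, a small heat shock protein, fell by 1.04 ± 0.17. Proteasome subunits rose in 3 of 32 and fell in 1, below the 15.5% and 16.2% of all genes. Scaled by library totals, 13 rose and 0 fell. PSMD12 rose by 0.32 ± 0.08. The rises numbered 1 without library 2 of gefitinib alone. The fall was lost without any 1 of the libraries of gefitinib alone or library 3 of the combination.

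Output genes of the EGFR to ERK pathway rose in 14 of 25 and fell in 4, with a median of 0.47. DUSP5, a nuclear phosphatase of ERK, had 76.6, 73.3 and 84.2 CPM with both agents, against 28.5, 26 and 28.9 CPM with gefitinib alone, a log2 change of 1.49 ± 0.12 (edgeR adjusted p = 1.5e-13). The ERK phosphatase DUSP6 rose by 1.25 ± 0.13, the feedback inhibitor SPRY4 by 1.67 ± 0.18 and PHLDA1 by 0.77 ± 0.09. FOS and FOSB, immediate-early genes of the same list, fell. FOS had 29.7, 28.4 and 18.7 CPM with both agents, against 108.5, 102.0 and 98.2 CPM with gefitinib alone, a log2 change of -2.01 ± 0.27, while FOSB fell by 2.06 ± 0.28. Over the list, gefitinib alone stood lower than untreated in 17 of 25 and higher in 1, with a median of -0.60, and the combination lower in 16 and higher in 2, with a median of -0.49; both share the untreated libraries. With CKI alone 14 rose and 5 fell, with a median of 0.28, and the difference was called in 5 of 25, a share near the 17.7% of all genes.

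Among 23 receptors and ligands of the EGFR family and its bypass routes, 7 rose and 5 fell, with a median of 0.04. Of all genes, 15.5% rose and 16.2% fell. TGFA, a ligand of EGFR, had 31.6, 33.0 and 34.3 CPM with both agents, against 9.27, 6.97 and 9.40 CPM with gefitinib alone. The groups do not overlap, the log2 change was 1.95 ± 0.14 (edgeR adjusted p = 1e-14), with CKI alone it was 1.08 ± 0.13, and the difference was 0.86 ± 0.19. MERTK, a receptor tyrosine kinase, rose by 1.39 ± 0.18, its ligand GAS6 fell by 1.22 ± 0.13, the neurotrophin receptor NGFR rose by 2.24 ± 0.34 and ERBB2 fell by 0.66 ± 0.11. EGFR itself had 87.7, 98.8 and 104.5 CPM with both agents, against 69.0, 80.4 and 85.1 CPM with gefitinib alone; its groups do not overlap, and its log2 change of 0.31 ± 0.16 did not pass the test (edgeR adjusted p = 0.15), although it did in a fit of the 6 libraries alone (0.029). MET, at 0.23 ± 0.13 (adjusted p = 0.18), and AXL, at -0.49 ± 0.20 (adjusted p = 0.054), receptors through which cells can bypass EGFR, did not pass the test; MET did without library 3 of gefitinib alone (0.037) and AXL in a fit of the 6 libraries alone (0.0011). ERBB3, at -0.28 ± 0.11, passed the test at an edgeR adjusted p of 0.049; the call was lost without any 1 of the 6 libraries except library 1 of gefitinib alone, and also with library-total scaling (-0.15, adjusted p = 0.33), no filter (0.080) and the GC correction (0.084).

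p53 targets and apoptosis genes were mixed. Of 23 p53 targets 7 rose and 5 fell, with a median of 0.13, where 15.5% of all genes rose and 16.2% fell. TP53I3 fell by 1.19 ± 0.09, TP53INP1 by 1.29 ± 0.15 and PHLDA3, an inhibitor of AKT, by 0.94 ± 0.14, while the nuclease AEN rose by 0.88 ± 0.11; scaled by library totals, 11 of the targets rose. CDKN1A, the cyclin-dependent kinase inhibitor p21, had 207, 197 and 206 CPM with both agents, against 194, 195 and 185 CPM with gefitinib alone, and its log2 change of 0.09 ± 0.08 did not pass the test (edgeR adjusted p = 0.41), although it did with the GC correction (0.24, adjusted p = 0.0045). With CKI alone it had 124, 131 and 124 CPM, against 43.2, 38.7 and 43.4 CPM in untreated cells, a rise of 1.60 ± 0.08, and the difference was -1.51 ± 0.11. Of 28 genes of the BCL2 family and apoptosis 7 rose and 3 fell, or 11 and 2 when scaled by library totals: the death receptor TNFRSF10A rose by 0.87 ± 0.12 and PMAIP1, which encodes NOXA, by 0.50 ± 0.12, while BBC3, which encodes PUMA, fell by 0.81 ± 0.20.

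Keratins, matrix genes and interferon-stimulated genes fell. Of 13 genes of lung lineage and keratins 7 fell and 3 rose, with a median of -0.56, and the summed level of the whole list ran from 3061 to 3337 CPM with both agents and from 6555 to 7429 CPM with gefitinib alone. KRT19 had 526, 562 and 574 CPM with both agents, against 1774, 1829 and 1478 CPM with gefitinib alone, a log2 change of -1.61 ± 0.14. KRT8 fell by 1.39 ± 0.15 and KRT7 by 1.17 ± 0.11; all 3 are structural keratins of simple epithelia. With CKI alone 7 of the 13 fell and 2 rose, with a median of -0.54.

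Genes of epithelial-mesenchymal change and matrix fell in 18 of 31 and rose in 7, with a median of -0.39, and the rises numbered 4 without library 2 of the combination. SNAI2, a repressor of epithelial genes, fell by 0.85 ± 0.10, LOXL2, a collagen cross-linking enzyme, by 0.82 ± 0.11 and TGFBI by 0.69 ± 0.09. Fibroblast markers moved with them: 4 of 6 measured fell and 0 rose, the summed level of the list of 12 ran from 435 to 485 CPM with both agents and from 692 to 817 CPM with gefitinib alone, and DCN and DPT, which define fibroblasts, were at 0 in all 6 libraries. TAGLN fell by 1.28 ± 0.14, COL1A2 by 0.90 ± 0.11 and COL1A1 by 0.58 ± 0.14.

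Interferon-stimulated genes fell in 18 of 35 and rose in 1 (0 without library 1 or 2 of gefitinib alone or library 1 or 3 of the combination), with a median of -0.31, and with CKI alone 23 fell and 1 rose, with a median of -0.68. IFITM1, a membrane protein that restricts virus entry, had 19.8, 21.1 and 17.2 CPM with both agents, against 55.1, 53.5 and 43.1 CPM with gefitinib alone, a log2 change of -1.38 ± 0.13. IRF9, the DNA-binding partner of the STAT factors, fell by 1.08 ± 0.10, MX2 by 0.94 ± 0.12 and IFITM3 by 0.87 ± 0.13. Of 13 genes of the ID, HES1 and SMAD group 8 fell and 0 rose, with a median of -0.58: ID4 fell by 1.46 ± 0.23, SMAD6, an inhibitor of BMP signalling, by 1.07 ± 0.20 and ID2 by 0.98 ± 0.21.

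With CKI added to gefitinib, the other lists moved less or in both directions. Their counts stand beside 15.5% of all genes that rose and 16.2% that fell. Among 38 genes of lysosomes and autophagy 5 rose and 10 fell, or 8 and 6 when scaled by library totals, with GPNMB falling by 1.38 ± 0.17 and the cholesterol exporter of lysosomes NPC1 by 0.47 ± 0.08, while the galactosidase GLA rose by 0.69 ± 0.10 and RRAGD, a GTPase that links amino acids to mTORC1, by 1.05 ± 0.18. With CKI alone 22 of the 38 rose and 0 fell, with a median of 0.29. The difference between the addition to gefitinib and CKI alone was called lower in 21 and higher in 1. Of all genes, 9.06% were called lower and 8.66% higher for that difference. Hypoxia and glycolysis genes rose in 3 of 32 and fell in 11, or in 4 and 7 when scaled by library totals, with ALDOC falling by 0.92 ± 0.10, PKM by 0.63 ± 0.09 and PFKFB4 by 0.59 ± 0.08. Respiratory chain subunits fell in 5 of 31, a share near the 16.2% of all genes, and rose in 0, or 1 each when scaled by library totals, and the falls numbered 3 without library 2 or 3 of gefitinib alone or library 1 or 2 of the combination, and ribosomal protein genes fell in 9 of 34, a count that was 4 without library 3 of the combination and 5 when scaled by library totals, with RPL3 falling by 0.51 ± 0.08 and RPL10 by 0.52 ± 0.08. Of 20 circadian clock genes 5 rose and 9 fell, with NPAS2 rising by 1.20 ± 0.12 and PER3 falling by 1.61 ± 0.18, TEF by 1.36 ± 0.14 and BHLHE40 by 0.97 ± 0.10, and the rises numbered 3 without library 3 of the combination. Drug metabolism and efflux genes rose in 6 of 18 and fell in 3, with CYP24A1, which breaks down vitamin D, falling by 1.82 ± 0.16, DIO2, a deiodinase of thyroid hormone, by 1.30 ± 0.22, and the glutathione transferase GSTM3 rising by 0.73 ± 0.10. Of 10 metallothionein and zinc genes 2 rose and 1 fell, where 15.5% of all genes rose and 16.2% fell. The rises numbered 1 without any 1 of the libraries except library 3 of the combination. The zinc sensor MTF1 rose by 0.54 ± 0.14 and MT1F fell by 0.51 ± 0.17. The MT1F call was lost without library 1 or 2 of gefitinib alone or library 3 of the combination. It was also lost with library-total scaling (edgeR adjusted p = 0.074), no filter (0.053) and the GC correction (0.12). Markers of luminal breast rose in 2 of 7 and fell in 0, with summed levels of 253 to 289.5 CPM with both agents and 183 to 211 CPM with gefitinib alone. Markers of blood cells rose in 1 of 5, or 0 without library 1 or 2 of gefitinib alone or library 2 or 3 of the combination, with sums of 127 to 150.5 CPM with both agents and 122 to 165 CPM with gefitinib alone, and CD3D, MS4A1 and LYZ were among those at 0. Markers of liver rose in 1 of 20 and fell in 1, with sums of 365 to 395 CPM with both agents and 485 to 569.5 CPM with gefitinib alone, and APOB, APOC3, TTR and F9 were at 0. The part of these cell types in the changes was not tested.

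**Figure D3:**
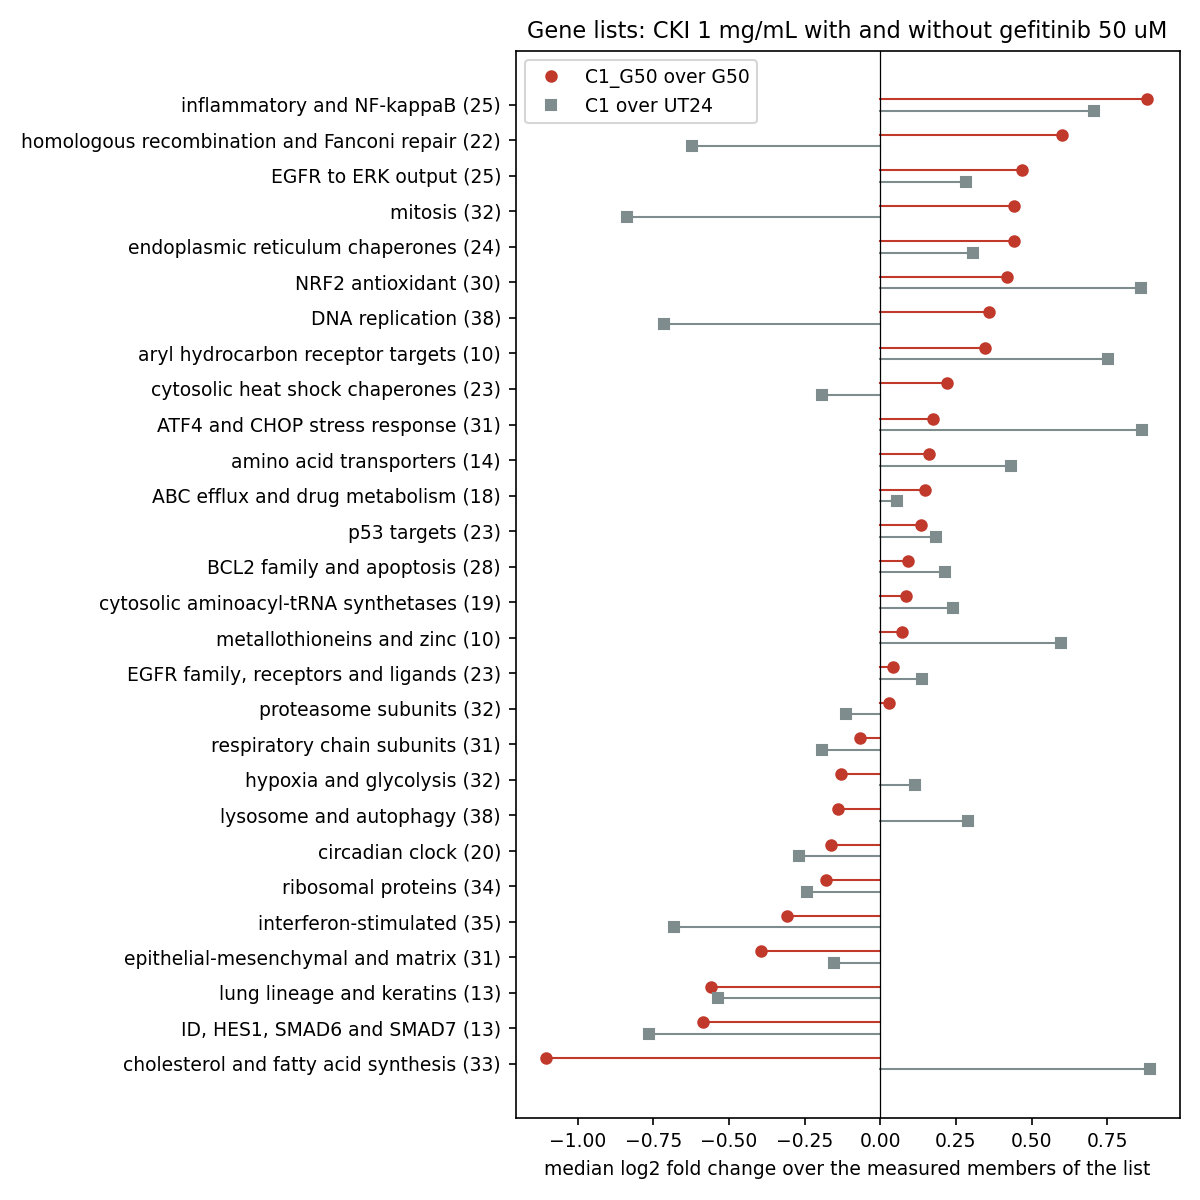
For each gene list (number of measured members in parentheses), the median log2 fold change of its members, on the x axis, for CKI 1 mg/mL with gefitinib 50 uM over gefitinib 50 uM alone (red circles, C1_G50 over G50) and for CKI 1 mg/mL alone over untreated cells (grey squares, C1 over UT24). The lists of DNA replication, mitosis and repair lie right of 0 with gefitinib and left of 0 without it, and cholesterol and fatty acid synthesis lies on the opposite sides, at -1.10 and 0.89; scaled by library totals, the medians with gefitinib kept these signs, while that of the respiratory chain, near 0, turned. Smaller medians also change side: heat shock (0.22 and -0.19), proteasome (0.03 and -0.11), lysosome (-0.14 and 0.29) and hypoxia (-0.13 and 0.12).

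Across all genes, CKI alone changed 4401 of 15789, with 47.2% of the calls higher, or 64.5% when scaled by library totals, and the change with CKI differed by the presence of gefitinib in 2798 genes, 1367 of them higher with gefitinib and 1431 lower. The 2 comparisons share no library. Both called 1587 genes in the same direction, 31.6% of the calls with gefitinib and 36.1% of those alone, and 478 in opposite directions, 9.53% and 10.9% of the calls. Of the 478, 262 rose with gefitinib and fell alone, and 216 did the reverse. All 478 were called for the difference, but 2 called changes of opposite sign nearly fix that outcome, so it adds no support. A fit that corrected the counts for GC content called 3271 genes for the difference, 2393 of them among the 2798. Beyond the lists above, the largest differences included CX3CL1, a chemokine tethered to the membrane, which rose by 1.21 ± 0.19 with gefitinib and fell by 1.10 ± 0.18 alone (difference 2.30 ± 0.26). KLHDC7B rose in both, by 0.68 ± 0.19 and by 2.91 ± 0.31 (difference -2.23 ± 0.38). ERVV-2, an envelope gene of an endogenous retrovirus with a close copy and therefore uncertain, gave -1.37 ± 0.18 with gefitinib and 2.24 ± 0.29 alone (difference -3.61 ± 0.34). WISP2 and KRT81 were at -0.36 ± 0.22 and -0.48 ± 0.25 with CKI alone, both uncalled, with differences of -1.78 ± 0.31 and -1.77 ± 0.35.

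**Figure D4:**
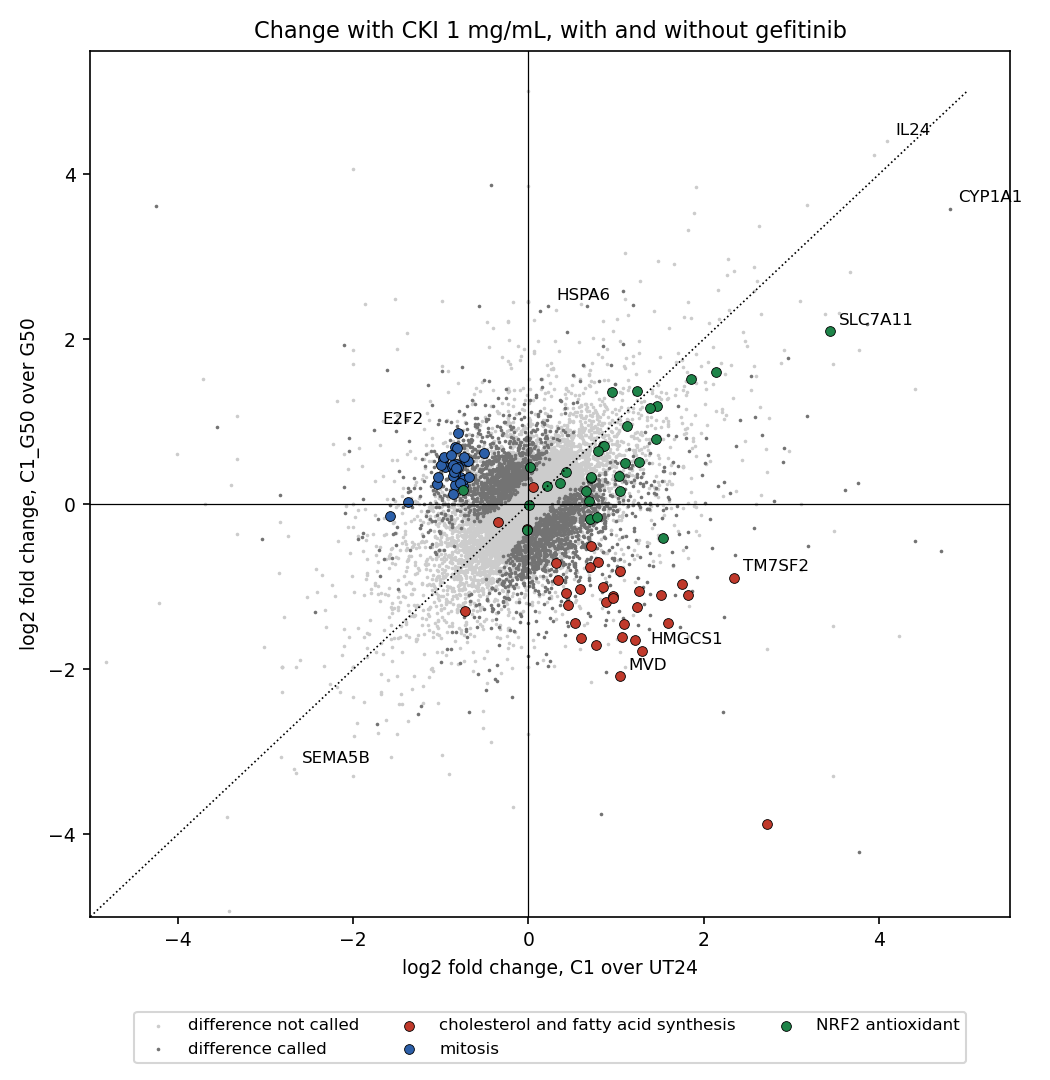
Each point is a gene, with its log2 fold change for CKI 1 mg/mL alone over untreated cells on the x axis and for CKI 1 mg/mL with gefitinib 50 uM over gefitinib 50 uM alone on the y axis; dark grey marks a called difference, and members of cholesterol and fatty acid synthesis (red), mitosis (blue) and NRF2 (green) are larger. The sterol genes gather at the lower right and the mitosis genes at the upper left, away from the dotted line of equal change, and 4 genes lie outside the axes.

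The addition was also made at the higher gefitinib dose. CKI 1 mg/mL added to gefitinib 75 uM changed 5456 genes (34.6%). Of all genes tested, 17.3% rose and 17.3% fell. The share of calls that were higher was 49.9% with TMM factors and 66.9% when scaled by library totals. Of the 5456 genes, 3447 were called in the same direction as at 50 uM. They were 68.7% of the calls at 50 uM and 63.2% of those at 75 uM. In opposite directions 5 genes were called, 0.0997% and 0.0916% of the calls. The 2 comparisons share no library. HMGCS1 changed by -2.25 ± 0.11 at 75 uM, KIF23 by 0.85 ± 0.10, IL24 by 3.75 ± 0.25 and CYP1A1 by 3.08 ± 0.21. In the lists, 31 of 33 sterol genes fell and 0 rose at 75 uM, 31 of 32 mitosis genes rose and 0 fell, and 18 of 25 inflammatory genes rose and 3 fell. Of 30 NRF2 genes 13 rose and 4 fell at 75 uM, with a median of 0.18. At 50 uM 19 rose and 2 fell, with a median of 0.42, and the difference between the doses was called in 0 of the 30. Libraries 2 and 3 of CKI 1 mg/mL with gefitinib 75 uM held liver transcripts, with up to 3302 counts of ALB, and 16 of 20 liver markers were called higher there; with a term for such libraries, 4435 genes were called.

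The difference between both additions was called in 20 genes (0.127%), 5 higher at 50 uM (0.0317%) and 15 lower (0.095%), and in 1431 at an unadjusted p under 0.05. It was called in 7 genes without library 2 of gefitinib 50 uM, 8 without library 2 of gefitinib 75 uM, 9 and 10 without library 1 or 3 of the combination at 50 uM, and 11 without library 3 of that at 75 uM. HSPA6 had 7.31, 7.55 and 9.65 CPM with both agents at 50 uM, against 1.61, 1.60 and 1.45 CPM with gefitinib 50 uM. At 75 uM it had 72.8, 94.1 and 93.1 CPM with both agents, against 2.48, 2.56 and 2.36 CPM with gefitinib 75 uM. The rise at 75 uM was 5.13 ± 0.17 and the difference -2.73 ± 0.29 (edgeR adjusted p = 5.5e-08). FOS had 107, 109 and 115 CPM with both agents at 75 uM, against 98.6, 86.3 and 91.7 CPM with gefitinib 75 uM. The change at 75 uM, 0.26 ± 0.25, did not pass the test, although it did in a fit of only the compared libraries (adjusted p = 0.0056), and the difference was -2.26 ± 0.37. FOSB differed by -3.02 ± 0.36, ARC, another immediate-early gene, by -2.37 ± 0.37, and PGF, a vascular growth factor, by -1.43 ± 0.31. IFI44L and OAS2, both interferon-stimulated, fell at both doses and less at 50 uM, with differences of 1.51 ± 0.27 and 1.07 ± 0.23. ARNT2 differed by 0.98 ± 0.20, GLIPR1 by 0.66 ± 0.15 and ZNF207 by 0.62 ± 0.12. The calls of PGF, OAS2, ARNT2, GLIPR1 and ZNF207 were lost without single libraries. Their edgeR adjusted p then reached 0.21 for PGF, 0.189 for OAS2, 0.143 for ARNT2, 0.329 for GLIPR1 and 0.0742 for ZNF207. With the term for libraries holding liver transcripts, PGF (0.057) and OAS2 (0.069) lost their calls. In a fit of only the compared libraries, PGF (0.085), ARNT2 (0.067) and GLIPR1 (0.059) lost theirs. GLIPR1 was also lost with relative log expression factors (0.060), library-total scaling (0.076) and no filter (0.085).

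**Figure D5:**
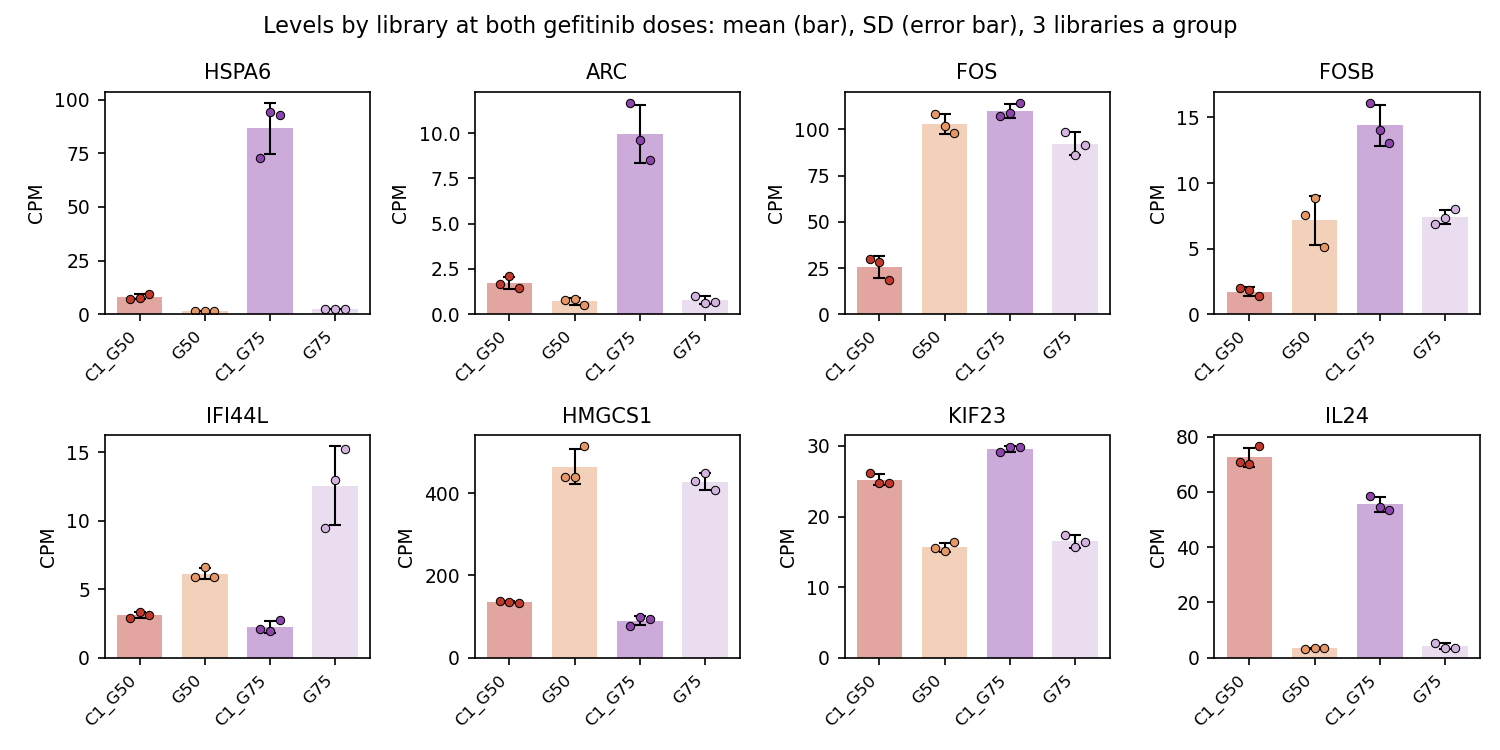
Level (CPM, y axis) of 8 genes in CKI 1 mg/mL with gefitinib 50 uM (C1_G50), gefitinib 50 uM alone (G50), CKI 1 mg/mL with gefitinib 75 uM (C1_G75) and gefitinib 75 uM alone (G75); points are the 3 libraries of a group, bars the mean and error bars the SD. HSPA6 reaches 7.31 to 9.65 CPM with both agents at 50 uM and 72.8 to 94.1 CPM at 75 uM.

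Raising CKI to 2 mg/mL under gefitinib 50 uM changed 6003 genes against the lower CKI dose (38%). Of all genes tested, 19.4% were higher and 18.6% lower at 2 mg/mL. This comparison shares the combination libraries with the addition above. HMGCS1 fell further along the dose series, with a mean of 465 CPM without CKI, 136 CPM at 1 mg/mL and 84.1 CPM at 2 mg/mL, and a log2 change between the 2 CKI doses of -0.69 ± 0.11. KIF23 rose further, by 0.72 ± 0.10 on the log2 scale, and 28 of 32 mitosis genes and 26 of 38 replication genes were higher at 2 mg/mL, with 0 lower in either list. IL24 turned back: it had 17.2, 20.7 and 16.3 CPM at 2 mg/mL, a log2 change of -2.00 ± 0.21 against 1 mg/mL, still above the 3.15 to 3.58 CPM of gefitinib alone. CYP1A1 changed by -0.60 ± 0.16. Of 30 NRF2 genes 1 was higher and 17 were lower at 2 mg/mL than at 1 mg/mL, with a median of -0.32. HSPA6 had 362, 356 and 285 CPM at 2 mg/mL, a log2 change of 5.35 ± 0.15, and 18 of 23 heat shock chaperones were higher and 0 lower. ARC rose by 4.12 ± 0.16, NGFR by 2.70 ± 0.21 and MCM10 by 0.89 ± 0.13, while GLP2R fell by 1.83 ± 0.15 and PSG5, of the family with near-identical copies, gave -1.77 ± 0.21 and is uncertain. Liver transcripts were present in libraries 1 and 3 at 2 mg/mL, where 16 of 20 liver markers were called higher and 2 lower, and a term for such libraries left 4611 genes called.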

How the data were processed

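Cells of 16 groups with 3 libraries each were sequenced as paired-end RNA libraries, per the labels' protocols after extraction with a PureLink kit and preparation with a NEBNext Ultra kit. The authors deposited raw counts per gene symbol for 27978 symbols; reads were trimmed with Trim Galore 0.4.2 and aligned with STAR 2.5.3a to hg19, per the submitters' processing notes, which also name edgeR. The counting tool, annotation and strand setting are not given in the sources used here, so a gene and its antisense partner cannot be told apart.

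From these counts, 15789 genes with enough reads (filterByExpr, minimum count 10, minimum total 15), holding 99.97% of counts, were fitted in R 4.3.3 with edgeR 4.0.16: TMM factors, robust dispersions, quasi-likelihood fits with 1 mean per group over all 48 libraries and 32 residual degrees of freedom. Contrasts were tested with glmQLFTest (two-sided), with Benjamini-Hochberg adjustment over all genes; calls are at adjusted p under 0.05. An SE is the log2 fold change over the square root of F. The p-values and SEs set a change against the spread between libraries of the same group. That spread was estimated over all 16 groups with information shared across genes, not from the compared libraries only. Libraries of a group differed from each other by more than counting error. The scripts were tested on simulated data. DESeq2 1.42.0, other scalings, no filter, a replicate block, fits of fewer libraries and a GC correction, chosen after seeing the data, were alternatives.

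The comparison and the gene lists were chosen with earlier results of these data known. Named genes are the 12 largest rises and falls at 5 CPM or more with groups that do not overlap, of each list up to 4 members with the smallest p, 13 fixed genes, and for other comparisons the 5 largest each way; not every gene so chosen is described. RefSeq promoter windows (GRCh38.p14) were matched by symbol, and their coordinates were not mixed with hg19.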

Additional observations from a re-analysis of the deposited data

Results flagged for a closer look

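The change with CKI 1 mg/mL differed by the presence of gefitinib 50 uM in 2798 genes, by the test of the difference itself in edgeR's fit. Among the genes named, the change with CKI was lower with gefitinib, on the log2 scale, for the sterol and fatty acid genes HMGCS1 (-3.08), FDFT1 (-2.55), SQLE (-2.32), SCD (-2.48), MVD (-3.13), DHCR7 (-3.04) and TM7SF2 (-3.24). It was also lower for ERVV-2 (-3.61), KLHDC7B (-2.23), GDF15 (-2.11), NUPR1 (-1.91), WISP2 (-1.78), KRT81 (-1.77), CDKN1A (-1.51), SLC7A11 (-1.35) and CYP1A1 (-1.23). It was higher with gefitinib for the cell cycle genes E2F2 (2.66), MCM10 (1.95), DTL (1.89), EXO1 (1.71) and KIF23 (1.51), and for CX3CL1 (2.30), HSPA6 (2.18), CXCL8 (1.73) and TGFA (0.86).

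The change with CKI differed between gefitinib 50 uM and 75 uM in 20 genes. The difference, 50 uM minus 75 uM on the log2 scale, was -3.02 for FOSB, -2.73 for HSPA6, -2.37 for ARC, -2.26 for FOS and -1.43 for PGF. It was 1.51 for IFI44L, 1.07 for OAS2, 0.98 for ARNT2, 0.66 for GLIPR1 and 0.62 for ZNF207. With 3 libraries a group, no formal outlier test of a single library was made.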

How the results depend on the processing

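The count of genes changed by CKI added to gefitinib 50 uM was 5015 as reported, 5021 with relative log expression factors, 4379 without a filter, 5035 in a fit of the 6 libraries alone, 5113 with DESeq2 and 5466 with a GC correction. Scaling by library totals called 5662, with 4021 higher and 1641 lower (71% higher), and for CKI alone 1543 lower (64.5% higher); at 75 uM 66.9% of calls were higher. Deviations of same-numbered libraries of the combination and of gefitinib alone correlated at 0.012, 0.173 and 0.161, and those of differently numbered ones at -0.198 to 0.043. With 3 libraries a group, these values cannot settle whether libraries of the same number belong together. A replicate block gave 4922 calls. Leaving out libraries 1 at a time gave 3601 to 5164 calls for the addition at 50 uM, 3479 to 3767 for CKI alone, 2061 to 3238 for the difference from CKI alone, 4134 to 4909 for the addition at 75 uM and 4861 to 5181 for 2 against 1 mg/mL. For the difference between gefitinib doses it gave 7 to 27 in all, 1 to 8 higher and 5 to 19 lower, against 20, 5 and 15; higher calls numbered 3 with the replicate block and 9 with a term for libraries holding liver transcripts, while the GC correction called 37 (12 higher, 25 lower) and DESeq2 35 (9 higher, 26 lower). The TRAF1 difference from CKI alone, 0.07, ran from -0.013, without library 3 of untreated cells, to 0.181 with libraries left out 1 at a time. Under the block, the calls of OAS2 and GLIPR1 for the difference between gefitinib doses were lost (edgeR adjusted p = 0.053 and 0.070), the fall in the proteasome list numbered 0, and no other call of a named gene changed. CXCL8, WISP2 and KRT81 were called with CKI alone when only the compared libraries were fitted (0.0044, 0.026 and 0.010), and EGFR (0.040) and CDKN1A (0.033) for the addition at 50 uM when scaled by library totals. DESeq2 called AXL (0.031). The calls of ERBB3 and MT1F for the addition at 50 uM were lost with library-total scaling, without a filter and with the GC correction. Of 223 gene results recomputed, 19 changed their call or sign in any setting. The causes of these moves were not tested. Genes near the filter carry too few counts for small changes to be seen.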
